A study of Rattus norvegicus with 10 samples.

Results

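The muscle miRNAs miR-1, miR-206 and miR-133 were followed in the small RNA libraries of the tissue around the stimulated points of arthritic rats. All mature arms whose names begin with rno-miR-1-, rno-miR-206, rno-miR-133a or rno-miR-133b were taken, which gave 8 of the 723 mature miRNAs listed, namely the 3p and the 5p arm of each of the 4 hairpins. There are 10 libraries in 5 groups of 2, all from female Wistar rats with collagen-induced arthritis (CIA), a model of rheumatoid arthritis raised by immunization with type II collagen. CIA_B was sampled before therapy. MS_E was sampled 1 h after mechanical stimulation and MS_A at 34 days. The labels call this therapy acupuncture, and a short needle was inserted and twirled at points of the lower back and the leg. PLA_E and PLA_A are the placebo arm at the same times, with saline injected into the peritoneum. Stimulation was repeated every other day and saline was given weekly, so the samples at 34 days follow repeated treatment and not a single session. The age of the rats and the number of animals behind a library are not given in the sources used here, so p-values measure the spread between libraries, which may in part be technical. The labels name the tissue as muscle below the epidermis, the study describes subcutaneous tissue that includes subcutaneous muscle, and the design text also mentions blood.

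miRNAs are short RNAs that pair with target messages, mainly through a seed near their 5′ end, and repress them. miR-1, miR-206 and miR-133 belong to the myomiRs, which are transcribed in striated muscle under factors such as MyoD, myogenin, MEF2 and SRF. miR-1 and miR-133a are made from the same transcripts in heart and skeletal muscle and are known to promote differentiation and proliferation of muscle precursors, respectively, while miR-206 and miR-133b come from a separate transcript that is largely limited to skeletal muscle, miR-206 being known from slow fibres, regenerating fibres and the neuromuscular junction.

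The mature 3p arms are shown because they fall into 2 seed families that cross the 2 genomic loci given below. The sequences are those of RefSeq on the build GRCr8, where 7 of the 8 members had an entry, and capitals mark the seed, bases 2 to 8.
rno-miR-1-3p: uGGAAUGUaaagaaguguguau
rno-miR-206-3p: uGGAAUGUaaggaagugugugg
rno-miR-133a-3p: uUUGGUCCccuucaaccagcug
rno-miR-133b-3p: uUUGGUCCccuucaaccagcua

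Counted from 1 at the 5′ end, miR-206-3p differs from miR-1-3p by A11G, A21G and U22G, and miR-133b-3p differs from miR-133a-3p by G22A alone. A read that lacks the last base of miR-133 therefore cannot be assigned to miR-133a or miR-133b, and their separate counts are uncertain to that extent, since how the authors' counting divided such reads is not given in the sources used here. A read of miR-1 and a read of miR-206 differ within their first 20 bases at 1 position. The seed of miR-1 and miR-206 occurs in 3 of 693 mature miRNAs of the RefSeq table and the seed of miR-133 in 2. The third holder of the miR-1 seed, miR-1b, which differs from miR-1-3p by G17A, is not listed in the count files.

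On GRCr8 miR-1-3p lies at chr18:2160339-2160360 and miR-133a-3p at chr18:2157886-2157907, both on the minus strand, in hairpins that are 2368 bases apart and within the span of the protein-coding gene Mib1. The annotation also places the miRNA genes Mir3571 over the hairpin of miR-1 and Mir3582 over that of miR-133a, and rno-miR-3582 had 0 counts in all 10 libraries. miR-206-3p lies at chr9:30590747-30590768 and miR-133b-3p at chr9:30594629-30594650, both on the plus strand, in hairpins 3801 bases apart within the long noncoding RNA gene LOC120094648. The table used here gives neither exons nor introns of these genes, and the files themselves were made on the build rn4, so that these positions serve only to show which miRNAs are neighbours. Only the first position of each mature name was taken, so reads from any further copy of a hairpin are not told apart.

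The 5p arms, the other strand of each hairpin, were far rarer. Over the 10 libraries together, 3099162 reads fell on miR-1-3p and 6 on miR-1-5p, and 437074 fell on miR-206-3p and 14 on miR-206-5p. These 2 passenger arms had at most 2 and 6 counts in any library and did not pass the filter on low counts, which left 6 of the 8 members among the 359 miRNAs tested. For miR-133b the totals were 203313 and 129. The 5p arm of miR-133a was the exception in abundance, with 23947 reads against 5355801 of its 3p arm, and both sequences are shown because they are the 2 passenger arms that could be tested.
rno-miR-133a-5p: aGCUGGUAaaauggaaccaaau
rno-miR-133b-5p: gCUGGUCAaacggaaccaagu

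Together the 8 members took between 6.10% and 31.2% of the miRNA reads of a library. miR-133a-3p alone accounted for 4.93% to 14.9% and ranked from 1 to 5 among the miRNAs of its library. miR-1-3p accounted for 0.814% to 14.3%, and its rank ranged from 2 to 15. miR-206-3p took 0.103% to 2.24% of the reads and miR-133b-3p 0.174% to 0.714%. Libraries held between 1513799 and 8926170 miRNA reads, the smallest being CIA_B replicate 1, where 3 counts correspond to 2.60 cpm, against 0.366 to 0.828 cpm in the other libraries. cpm, the unit of all levels below, is the count relative to all miRNA reads of a library (counts per 1e6) after scaling with the TMM factors of edgeR (0.675 to 1.41).

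**Figure D1:**
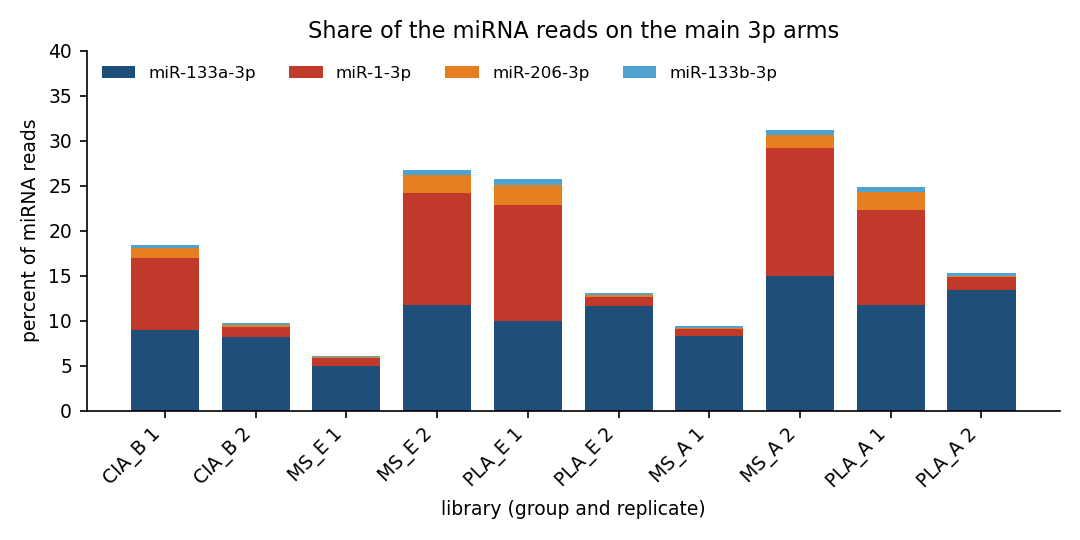
Percent of all miRNA reads on the 4 main 3p arms (stacked bars) in each of the 10 libraries, named by group and replicate. The miR-133a-3p part stays between 4.93% and 14.9%, while the miR-1-3p part is wide in 1 library of each group and narrow in the other.

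Levels of rno-miR-1-3p divided the 2 libraries of every group. In replicates 1 and 2 it was at 104864 and 10115 cpm in CIA_B, at 11905 and 100664 cpm in MS_E and at 90887 and 11313 cpm in PLA_E. The late groups had 12058 and 122962 cpm in MS_A and 80400 and 15564 cpm in PLA_A. Thus 1 library of each group lay between 80400 and 122962 cpm and the other between 10115 and 15564 cpm, so that the ranges of all 5 groups overlap. The study describes the sampled subcutaneous tissue as dorsal, while its methods describe tissue around the stimulated points, which lie on the lower back and the leg. The labels give no site for single libraries. Whether the 2 libraries of a group differ in site is therefore not known and was not tested. The higher library was replicate 1 in CIA_B, PLA_E and PLA_A and replicate 2 in MS_E and MS_A, and the ratio of the 2 libraries was between 5.17 and 10.4.

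rno-miR-206-3p, which shares the seed of miR-1 and sits on the other chromosome, divided the same libraries. It was at 14925 and 1867 cpm in replicates 1 and 2 of CIA_B, at 1665 and 16097 cpm in MS_E and at 15857 and 1276 cpm in PLA_E. In MS_A it was at 1531 and 12031 cpm and in PLA_A at 14649 and 1143 cpm. In each group the library with more miR-1-3p was also the one with more miR-206-3p, by a factor of 7.86 to 12.8. Within their first 20 bases the 2 miRNAs differ at 1 position, and the mismatches allowed in counting are not given. Whether reads of miR-1 were counted as miR-206 was not tested, so the 2 counts may not be independent.

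rno-miR-133a-3p showed no such division, although its hairpin neighbours that of miR-1. It was at 117214 and 77100 cpm in replicates 1 and 2 of CIA_B, at 67920 and 93907 cpm in MS_E and at 70505 and 118939 cpm in PLA_E. The late groups had 122982 and 128713 cpm in MS_A and 89171 and 139360 cpm in PLA_A. Its level in the library with more miR-1-3p was 0.593 to 1.52 times that in the other library of the group, and it was the higher one in 3 of 5 groups. Both MS_A libraries lay above those of CIA_B, MS_E and PLA_E and between the 2 libraries of PLA_A.

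rno-miR-133b-3p, the neighbour of miR-206, was at 4019 and 2479 cpm in replicates 1 and 2 of CIA_B, at 2403 and 3848 cpm in MS_E and at 5048 and 3207 cpm in PLA_E. In MS_A it was at 3112 and 4771 cpm and in PLA_A at 4643 and 3898 cpm. It was higher in the library with more miR-1-3p in 5 of 5 groups, by a factor of only 1.19 to 1.62, and both PLA_A libraries lay above both MS_E libraries while the other pairs of groups overlap. With scaling by library size alone, without TMM factors, the highest library exceeded the lowest by 2.03 on the log2 scale for miR-133b-3p and by 1.60 for miR-133a-3p, so the narrowness of these levels depends in part on the scaling.

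The passenger arm rno-miR-133a-5p ranged from 224 cpm in MS_E replicate 1 to 721 cpm in PLA_A replicate 2, the libraries in which miR-133a-3p was also lowest and highest. In MS_A the 2 arms differed in direction, with the 5p arm at 686 and 450 cpm in replicates 1 and 2. miR-133b-5p was close to the limit of detection, from 0.154 to 6.03 cpm on 1 to 45 counts per library.

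**Figure D2:**
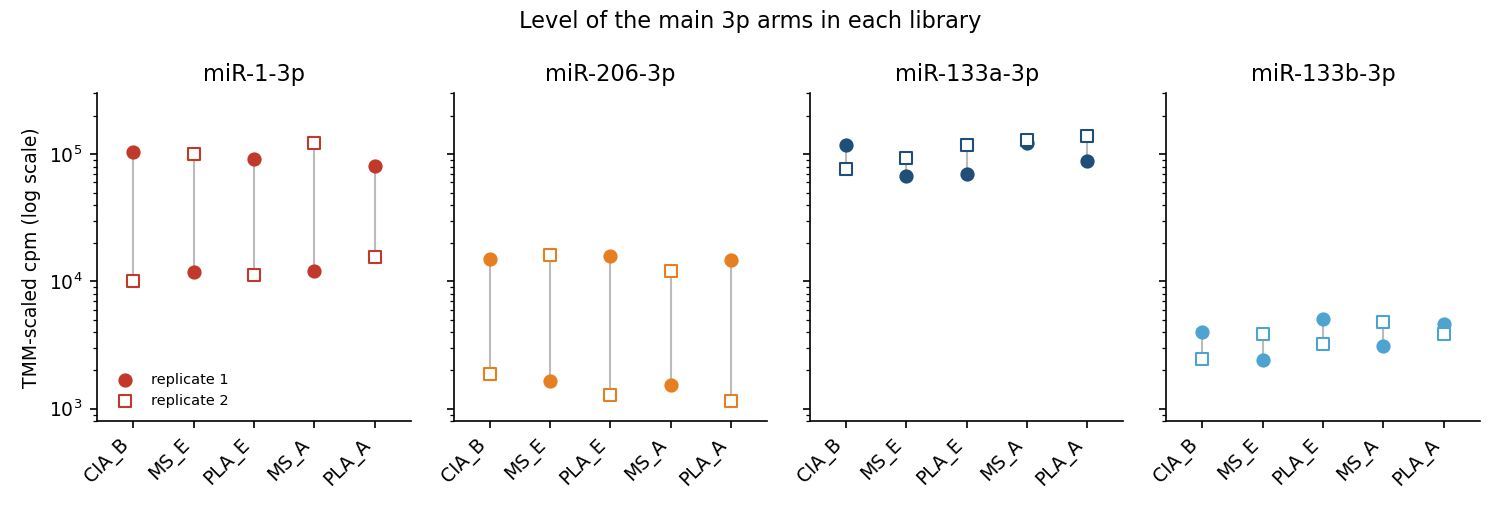
Level of the 4 main 3p arms in each library, in TMM-scaled cpm on a log axis, with filled circles for replicate 1 and open squares for replicate 2 of each group and a line joining them. For miR-1-3p and miR-206-3p the 2 libraries of every group are far apart, by 5.17 to 12.8 times, while those of miR-133a-3p and miR-133b-3p stay close together.

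The distance between libraries of 1 group was wide for miRNAs of such abundance. The SD of log2 cpm within groups, pooled over the 5 groups, was 2.35 for miR-206-3p and 2.16 for miR-1-3p, rank 7 and rank 8 of the 359 tested miRNAs. Among the 49 miRNAs with a geometric mean over 1000 cpm they ranked 1 and 2. The median of all tested miRNAs was 0.626 and that of the 49 abundant ones 0.483. By contrast, the SD was 0.396 for miR-133a-3p and 0.427 for miR-133b-3p, which ranked 33 and 31 of 49, and 0.578 for miR-133a-5p. miR-133b-5p, with 1 to 45 counts per library, had 1.45.

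**Figure D3:**
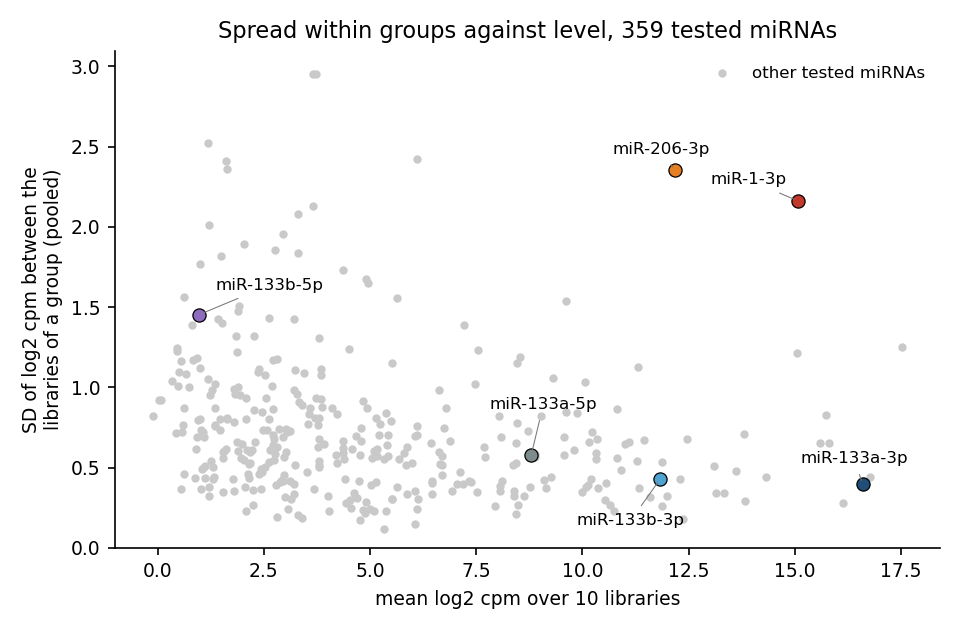
SD of log2 cpm between the libraries of a group (pooled over the groups, y axis) against the mean log2 cpm over 10 libraries (x axis) for the 359 tested miRNAs, with the 6 tested members named. miR-206-3p (2.35) and miR-1-3p (2.16) stand above all other miRNAs of a comparable level, and both miR-133 3p arms lie among the rest.

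Ratios of counts within a library do not depend on scaling. Reads of different miRNAs also carry the sequence preference of library preparation, so a ratio is read here across libraries and not as a ratio of molecules. For miR-1 and miR-206, any reads counted for the wrong one would also enter the ratio, which was not tested. The ratio of miR-1-3p to miR-206-3p, which share the seed, stayed between 5.42 and 13.6, with an SD of its log2 of 0.43 over the 10 libraries. That of miR-133a-3p to miR-133b-3p stayed between 14.0 and 39.5 (SD of log2 0.46), which is no steadier than either miRNA alone (SD of log2 cpm 0.38 for each). Between neighbours on a chromosome the ratios were spread much more. miR-1-3p to miR-133a-3p ranged from 0.0951 to 1.29 (SD of log2 1.65) and miR-206-3p to miR-133b-3p from 0.293 to 4.18 (SD of log2 1.50). For comparison, the SD of log2 cpm over the 10 libraries was 1.61 for miR-1-3p and 1.76 for miR-206-3p alone, so these ratios varied about as much as their more variable member. The pairs that share neither seed nor locus had 1.32 (miR-1-3p and miR-133b-3p) and 1.86 (miR-206-3p and miR-133a-3p). The 2 arms of the miR-133a hairpin had the most constant ratio, 179 to 303 (SD of log2 0.29).

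**Figure D4:**
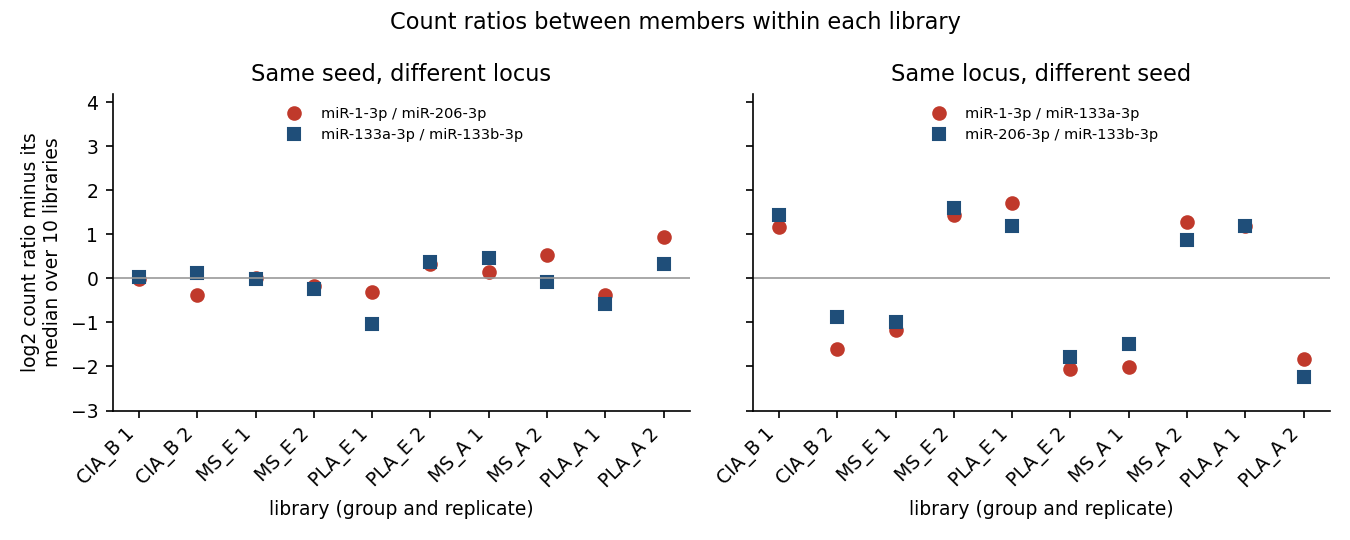
Log2 count ratio of 2 members in each library, minus its median over the 10 libraries, for members that share a seed (left) and for members that share a locus (right). Ratios on the left stay near 0 with SDs of 0.43 and 0.46, whereas those on the right move up and down together from library to library with SDs of 1.65 and 1.50.

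No difference of these ratios between the arms or the times passed the test. The log2 ratio of miR-1-3p to miR-206-3p was 3.14 ± 0.56 (SD, n = 4) at 34 days and 2.79 ± 0.27 (SD, n = 4) at 1 h, with p = 0.314 in a two-sided exact permutation test and 0.898 after Benjamini-Hochberg adjustment over 10 such tests. It was 2.95 ± 0.30 in the MS libraries and 2.97 ± 0.62 in the PLA libraries (SD, n = 4 each, exact permutation p = 0.971, adjusted p = 0.971). For miR-1-3p to miR-133a-3p the values were -1.46 ± 1.74 and -1.58 ± 1.97 in MS and PLA (SD, n = 4 each, exact permutation p = 0.829, adjusted p = 0.971) and -1.68 ± 1.82 and -1.36 ± 1.88 at 34 days and 1 h (SD, n = 4 each, exact permutation p = 0.600, adjusted p = 0.898). The smallest p that 4 against 4 allows is 0.0286. Leaving out single libraries turned the sign of 3 of these 4 differences, each in 4 of 8 refits, and left that of miR-1-3p to miR-206-3p over time between 0.14 and 0.58.

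The likeness of 2 miRNAs was described by the SD of the log2 ratio of their cpm over the 10 libraries, which is 0 for a constant ratio. All these points share the same libraries and scaling. For miR-1-3p the most alike of the other 358 tested miRNAs was miR-206-3p (0.43), and the reverse also held. After it came miR-3577 (0.48), miR-503-5p (0.55) and miR-3068-5p (0.57), the first 2 at a median of 8.09 and 4.99 cpm. For miR-206-3p the nearest miRNAs outside the members were miR-376b-5p (0.64), miR-3577 (0.68) and miR-376a-5p (0.70). miR-133a-3p stood at rank 147 from miR-1-3p. Nearest to miR-133a-3p were miR-30d-3p (0.21), miR-143-5p (0.23) and miR-378a-5p (0.25), and its own 5p arm was at rank 9 and miR-133b-3p at rank 63. Those nearest to miR-133b-3p were let-7d-3p (0.20), miR-26b-5p (0.22) and miR-22-5p (0.26), with miR-133a-3p at rank 51. The 5p arm of miR-133a was nearest to miR-126a-5p (0.28), then to its own 3p arm (0.29), and after these to miR-378a-5p (0.31) and miR-30d-3p (0.32). For the sparse miR-133b-5p they were miR-384-5p (0.62), miR-101a-5p (0.63) and miR-29a-5p (0.65).

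Other values moved with the division of the libraries, and their part in it was not tested. Deviations from group means over all 359 tested miRNAs followed it too. Those of replicate 1 correlated at 0.23 to 0.59 between groups whose library with more miR-1-3p has the same number. Between the other groups they correlated at -0.54 to -0.28. The division is thus not particular to the members. The smooth muscle list, 4 of 4 arms of miR-143 and miR-145 tested, was summed to 27013 to 54289 cpm in the libraries with more miR-1-3p and to 68375 to 101561 cpm in the others, and was lower in the former in 5 of 5 groups (0.346 to 0.737 times). The leukocyte list (5 of 6 names listed, all 5 tested) was higher in 4 of 5 groups, with the widest difference in PLA_A, where replicate 1 had 14583 cpm and replicate 2 had 2175 cpm. The epithelium list (6 of 7 tested) was highest in MS_E replicate 1, a library with less miR-1-3p, at 447 cpm against 33.7 to 135 cpm in the other libraries. The lists of fibroblast (3 of 4 tested), endothelium (2 of 2) and erythroid (3 of 3) miRNAs were higher in the library with more miR-1-3p in 2, 2 and 3 of 5 groups. The number of miRNA reads was higher there in 2 of 5 groups and the TMM factor in 4 of 5. In a piece of tissue, fewer muscle cells and less miRNA per muscle cell cannot be told apart.

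The other muscle-enriched miRNAs, miR-208 and miR-499, which are encoded in introns of myosin heavy chain genes, followed the division of the libraries in part. Of their 6 names 3 were tested. The cardiac miR-208a had 5 counts over all libraries on its 3p arm and 0 on its 5p arm. miR-208b-3p, known from slow fibres, was at 513 and 432 cpm in replicates 1 and 2 of CIA_B, 32.7 and 59.6 cpm in MS_E, 222 and 55.7 cpm in PLA_E, 247 and 83.1 cpm in MS_A and 690 and 61.8 cpm in PLA_A. miR-499-5p was at 313 and 153 cpm in CIA_B, 23.8 and 34.8 cpm in MS_E, 147 and 57.4 cpm in PLA_E, 156 and 55.9 cpm in MS_A and 335 and 79.8 cpm in PLA_A. Both were higher in replicate 1 in all groups but MS_E, and hence in MS_A higher in the library with less miR-1-3p. The summed list was higher in the library with more miR-1-3p in 4 of 5 groups (0.349 to 7.23 times). A miRNA is called changed here, as by the authors, at over 2-fold with a p below 0.05 before adjustment, in edgeR's quasi-likelihood test. Against CIA_B at 1 h of MS, where 6.41% of all tested miRNAs were called, miR-208b-3p fell by 3.35 and miR-499-5p fell by 2.97 on the log2 scale (SE 1.12 and 0.86, adjusted p in edgeR 0.446 and 0.373), and both libraries of MS_E lay below both of CIA_B. In the same comparison 4 of 6 tested miRNAs of the epithelium list were called higher, with a median log2 fold change of 3.72, and 2 of 6 against PLA_E. Against CIA_B 1 of 5 leukocyte and 1 of 3 erythroid miRNAs were also called higher. Their part in the values of miR-208b and miR-499 was not tested here or below. Without MS_E replicate 1 the call of miR-208b-3p was lost (-3.03), while that of miR-499-5p was kept with any 1 of the 4 libraries left out. Against the placebo of the same time (background 3.9%) 1 of the 3 was called, miR-499-3p at -1.92 (SE 1.27, adjusted p in edgeR 0.832), which has 91 counts in all and was called in 1 of 4 refits without a library (-0.60 without PLA_E replicate 1). The replicate block (-1.70) and limma-voom (-2.52) lost this call. In MS against PLA at both times (background 3.34%) miR-499-3p (-1.77, SE 0.83) and miR-499-5p (-1.38, SE 0.57) were called lower, and at 34 days against 1 h (background 4.74%) miR-499-5p (1.43, SE 0.57) was called higher, with adjusted p of 0.681 to 0.850 in edgeR. These calls were kept in 5, 3 and 4 of 8 refits without a library and moved furthest without PLA_A replicate 1, to -1.0002, -0.67 and 0.72. All 3 were lost with limma-voom (-1.96, -1.24 and 1.27), and that of miR-499-3p also with the replicate block (-1.48). Both of miR-499-5p were also lost with a mean of at least 100 counts (-1.38 and 1.21). The one at 34 days was also lost with library size only (1.22). In MS against PLA 2 of 5 leukocyte miRNAs were called lower as well (median log2 fold change -0.88), and at 34 days against 1 h 1 of 5 leukocyte and 1 of 3 erythroid miRNAs were called higher and 1 of 6 epithelium miRNAs lower. In the other 5 comparisons 0 of the 3 were called or had an unadjusted p under 0.05 in edgeR, and DESeq2 and limma-voom called 0 as well.

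The first comparison of the design sets each treated group against the state before therapy. None of the 6 tested members was called in any of the 4 comparisons with CIA_B, which share the same 2 CIA_B libraries. The background, the share of all 359 tested miRNAs that were called, was 6.41% in MS_E, 1.11% in MS_A, 0.557% in PLA_E and 6.96% in PLA_A. The median log2 fold change of the members and of all tested miRNAs was -0.04 and 0.06 in MS_E, 0.26 and 0.10 in MS_A, -0.0037 and 0.07 in PLA_E, and 0.21 and 0.11 in PLA_A. The comparison of the arms at the same time gave none of 6 either, beside 3.9% of all tested miRNAs at 1 h and 1.95% at 34 days. There the medians of the members and of all were -0.09 and 0.03 at 1 h and -0.04 and -0.02 at 34 days.

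For miR-1-3p the log2 fold changes of these 6 comparisons lay between -0.26 (PLA_A against CIA_B) and 0.49 (MS_A against PLA_A), with an SE of 1.53 in all. Over the 6 comparisons the 95% intervals reach from 0.0758-fold to 15.6-fold, so that even large changes of miR-1-3p were not detectable in this design. For miR-206-3p the range was -0.31 (MS_A against CIA_B) to 0.08 (MS_E against CIA_B) with an SE of 1.63, and the intervals reach from 0.0627-fold to 13.6-fold. For miR-1-3p the direction turned without CIA_B replicate 1 or PLA_A replicate 2 in the first of its comparisons named here (up to 2.09) and without MS_A replicate 2 or PLA_A replicate 2 in the second (down to -1.98). For miR-206-3p it turned without CIA_B replicate 1 or MS_A replicate 1 (up to 1.81) and without CIA_B replicate 2 or MS_E replicate 2 (down to -2.33), respectively.

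miR-133 was measured more closely. miR-133a-3p ranged from -0.26 (MS_E against CIA_B) to 0.37 (MS_A against CIA_B) with SEs of 0.50 to 0.51 and intervals from 0.378-fold to 2.86-fold. miR-133b-3p ranged from -0.40 (MS_E against PLA_E) to 0.39 (PLA_A against CIA_B), with an SE of 0.47 and intervals from 0.362-fold to 2.75-fold. The 5p arm of miR-133a ranged from -0.43 (PLA_E against CIA_B) to 0.22 (MS_A against CIA_B), with intervals from 0.316-fold to 2.72-fold. These bounds are the widest of the 6 intervals of each miRNA, and a p that misses the threshold does not show equal levels. miR-133b-5p ranged from -0.76 (MS_E against PLA_E) to 1.08 (PLA_E against CIA_B) with SEs of 1.28 and 1.40. Without MS_E replicate 2, miR-133b-5p was called lower in MS_E than in PLA_E, with a log2 fold change of -2.79 that rests on 1 count in the remaining MS_E library, and without PLA_E replicate 1 its direction turned here (1.72) and against CIA_B (-1.40).

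**Figure D5:**
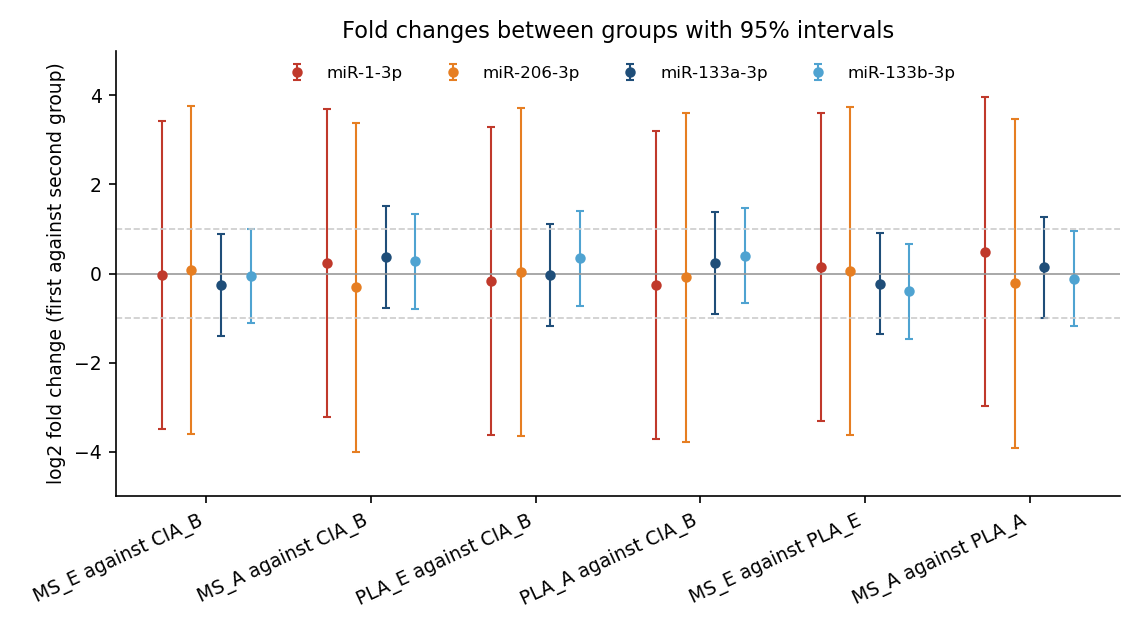
Log2 fold changes (points) with 95% intervals (bars) of the 4 main 3p arms in the 6 comparisons between groups, from edgeR's quasi-likelihood fit on 10 libraries, with dashed lines at a 2-fold change. Every interval includes 0, and those of miR-1-3p and miR-206-3p are far wider than those of miR-133a-3p and miR-133b-3p.

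The order of the group means differed between the members. Means of log2 cpm weight the 2 libraries of a group equally, unlike the fit, and can differ from it in direction for miR-1 and miR-206. On this scale the order for miR-1-3p was PLA_E, CIA_B, MS_E, PLA_A and MS_A from the lowest to the highest, and the whole range of group means was 0.26 against a within-group SD of 2.16. For miR-206-3p the order was PLA_A, MS_A, PLA_E, MS_E and CIA_B, with a range of 0.37 against 2.35. miR-133a-3p and its 5p arm had the same order, MS_E, PLA_E, CIA_B, PLA_A and MS_A, with ranges of 0.66 and 0.70 against SDs of 0.40 and 0.58. For miR-133b-3p it was MS_E, CIA_B, MS_A, PLA_E and PLA_A, with a range of 0.48 against 0.43. No 2 neighbours in any of these orders differed beyond the spread within groups.

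With the 4 libraries of both times or both arms joined, none of the 6 members was called either. MS against PLA, where 3.34% of all tested miRNAs were called, gave 0.32 (SE 1.08) for miR-1-3p, -0.08 (SE 1.15) for miR-206-3p, -0.04 (SE 0.36) for miR-133a-3p and -0.26 (SE 0.33) for miR-133b-3p on the log2 scale. The values for the 5p arms were 0.04 (SE 0.38) for miR-133a-5p and -0.59 (SE 0.91) for miR-133b-5p. At 34 days against 1 h, where 4.74% were called, miR-133a-5p was at 0.61 (SE 0.38) and miR-133a-3p at 0.45 (SE 0.36), with adjusted p = 0.801 and 0.838 in edgeR's quasi-likelihood test. The former has the smallest p of any member in any comparison, 0.144 before adjustment. Without MS_E replicate 2 this p was 0.0355 at a log2 fold change of 0.98, which is short of a 2-fold change. The remaining values were 0.09 (SE 1.08) for miR-1-3p, -0.25 (SE 1.15) for miR-206-3p, 0.19 (SE 0.33) for miR-133b-3p and -0.09 (SE 0.91) for miR-133b-5p. The difference between the arms in their change over time, the interaction, was called for 3.34% of all tested miRNAs and for none of the members (smallest adjusted p 0.993). In all 9 comparisons edgeR gave 0 of 54 member tests under an unadjusted p of 0.05, and so did DESeq2 and limma-voom.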

How the data were processed

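Groups were taken from the labels. The authors made small RNA libraries (TruSeq kit, HiSeq sequencing, CASAVA 1.8), trimmed adapters, dropped short reads, mapped the rest to rn4 and miRBase with miRDeep2 (the submitters' notes also name Bowtie), and deposited whole, unnormalized read counts per miRNA and precursor. Mismatches allowed are not given in the sources used here. The largest count over precursors was taken. A joint table was left out because the names of its 20 value columns match no label.

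Tests used edgeR 4.0.16 (R 4.3.3) with TMM factors and 1 quasi-likelihood fit of all 10 libraries with a mean per group, on miRNAs reaching 1 cpm in 5 or more of them. Fold changes carry a prior count of 2. SEs come from the fold change without prior and the F statistic. Adjusted p-values are Benjamini-Hochberg over all tested. The test was checked on simulated data. Alternatives were limma-voom (limma 3.58.1), DESeq2 1.42.0, other scalings and filters, summed precursors, only the groups compared, a replicate block and each library left out, the last also for the ratios, which was added after seeing the data. Counts of the 2 libraries of a group were not duplicates, with chi-square values of 1471 to 8619 for each degree of freedom. Ratios were tested with scipy 1.17.1, and figures were drawn with matplotlib 3.10.9. The named miRNAs are all members, the miR-208 and miR-499 arms and the 3 nearest to a member by likeness. Members, lists and rules were chosen with earlier results of these data known. Depth covers counting error alone, as several reads can stem from 1 molecule.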

Additional observations from a re-analysis of the deposited data

How the results depend on the processing

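No member was called under any alternative that kept all libraries, and with single libraries left out the number of members called stayed at 0 except for MS_E against PLA_E, where it was 0 to 1. Of the 54 log2 fold changes of the members, all without a call, 11 turned their sign with limma-voom, 14 with library size only, 6 with no filter, 6 with the replicate block, 4 of 45 with a mean of at least 100 counts, 3 with scaling without the members, 2 each with DESeq2, DESeq2 size factors and summed precursors and 1 with only the groups compared, and the cause was not tested. Among the values printed above, those that turned with limma-voom were miR-206-3p in MS_E against CIA_B (-0.036) and in MS against PLA (0.14), miR-1-3p in PLA_A against CIA_B (0.11), miR-133a-5p in MS against PLA (-0.0072) and miR-133b-5p at 34 days against 1 h (0.68). With scaling by library size only they were miR-206-3p in MS_A against CIA_B (0.16), miR-1-3p in PLA_A against CIA_B (0.41) and at 34 days against 1 h (-0.018), and miR-133a-5p in MS against PLA (-0.17), and the log2 of the highest over the lowest library moved to 1.60 for miR-133a-3p and 2.03 for miR-133b-3p. In MS against PLA, scaling without the members gave -0.016 for miR-133a-5p, no filter 0.0016 for miR-206-3p and a mean of at least 100 counts 0.062 for miR-133a-3p. The last setting gave -0.037 for miR-1-3p at 34 days against 1 h.

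The replicate numbers do not pair the libraries. Deviations of equal numbers correlated between -0.54 and 0.59 over 10 pairs of groups, over 0.1 in 4 of them. These 4 are the pairs of groups whose library with more miR-1-3p has the same number. With the replicate block, of the values printed above miR-206-3p turned to 0.73 in MS_A against CIA_B and to 1.03 in MS against PLA, and no member was called.

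With each library left out in turn, the lone library of a group is assumed to vary like the others. Over all 9 comparisons the ranges were -2.35 to 2.69 for miR-1-3p, -3.02 to 2.80 for miR-206-3p, -0.56 to 0.81 for miR-133a-3p, -1.12 to 0.98 for miR-133a-5p, -0.78 to 0.69 for miR-133b-3p and -2.79 to 2.38 for miR-133b-5p. For the comparisons of 2 groups printed above, miR-1-3p lay between -1.77 and 2.09 (PLA_A against CIA_B) and between -1.98 and 2.13 (MS_A against PLA_A), miR-206-3p between -2.33 and 2.13 (MS_E against CIA_B) and between -2.45 and 1.81 (MS_A against CIA_B), miR-133a-3p between -0.53 and 0.00086 (MS_E against CIA_B), miR-133a-5p between -0.11 and 0.54 (MS_A against CIA_B), and miR-133b-5p between -1.40 and 1.88 (PLA_E against CIA_B) and between -2.79 and 1.72 (MS_E against PLA_E). In MS against PLA the ranges were -0.95 to 1.40 for miR-1-3p, -1.29 to 1.34 for miR-206-3p, -0.21 to 0.19 for miR-133a-3p, -0.33 to 0.33 for miR-133a-5p and -1.60 to 0.65 for miR-133b-5p. At 34 days against 1 h they were -1.22 to 1.21 for miR-1-3p, -1.63 to 1.12 for miR-206-3p, -0.028 to 0.38 for miR-133b-3p and -0.51 to 1.15 for miR-133b-5p. The difference in the log2 ratio of miR-1-3p to miR-206-3p was -0.19 to 0.25 in MS against PLA, and that of miR-1-3p to miR-133a-3p was -0.48 to 0.78 in MS against PLA and -1.0002 to 0.25 at 34 days against 1 h, an alternative chosen after seeing the data. The precision is limited by the spread between libraries for miR-1-3p and miR-206-3p, and miR-133b-5p combines a wide spread with 1 to 45 counts per library.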
